A study of Mus musculus with 12 samples.

Results

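The mitochondrial ribosome is the ribosome inside mitochondria that makes the 13 proteins encoded by the mitochondrial genome, all of them subunits of the respiratory chain or of ATP synthase. Its RNAs come from the mitochondrial genome, whereas its proteins are encoded in the nucleus, made in the cytosol and imported, so that building it needs the output of both genomes. The large subunit holds the site that joins amino acids, and the small subunit binds the mRNA and reads its codons. Here the genes for these proteins were followed in mouse bone marrow progenitors and set against the mitochondrial mRNAs that the ribosome translates. The genes were taken from the table by symbol, as every name that starts with Mrpl or Mrps and a digit, with 4 names that end in a pseudogene mark left out. This gave 76 of 33924 genes, of which 49 belong to the large subunit and 26 to the small subunit. Mrps30 and Mrps18a were counted with the large subunit, where their proteins sit, and Mrps36, now known as a part of 2-oxoglutarate dehydrogenase, was set apart. A filter on low counts kept 71 of them (47 large, 24 small) among 10604 genes.

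The RNA came from bone marrow of the femurs and tibias, from live cells sorted as lineage-negative, Sca1-negative and c-Kit-positive, a gate that holds myeloid progenitors. All mice carried Mx+, as the labels write it, and were either Wt1+/+ controls or Wt1fl/+, called het here; Wt1 encodes a zinc-finger transcription factor. Each genotype was taken at 2 ages, which the labels call old chronic and young acute, so that age and the chronic or acute condition cannot be told apart, and the labels explain neither word further. There were 3 libraries in each of the 4 groups, numbered here within each group in accession order. The labels do not say that the libraries of a group came from separate mice, so the p-values below measure the spread between these samples, which may be technical. The study's design sets het progenitors against controls of the same age, and the comparisons between ages were added for a view across the 4 groups.

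Libraries were 3′ tag libraries that held 645460 to 9645502 counts, with the young controls lowest on average (645460 to 1600995). The counts in the 76 genes ran from 2567 to 44491 a library, and 65 to 74 of them had at least 1 count. The summed level of 10 myeloid progenitor markers was 4923 to 15230 CPM (counts scaled to a common library total of 1e6), that of 6 T cell markers was at most 23.6 CPM with Trac at 0 in every library, and that of 8 markers of mature neutrophils was 2126 to 12550 CPM. Ly6a, the gene of the Sca1 antigen used in the gate, reached 69.8 CPM in 1 old control library and was at most 0.81 in every library of the other groups. Wt1 itself had only 1 to 23 counts a library, which is too few to check the genotype. Ddx3y, a Y-linked gene, had 0 counts in 5 libraries (all 3 of young het, young control 3 and old het 1), so the sexes of the mice differed between the groups.

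The first 4 upstream sequences below belong to the genes that differed between old and young controls, all lower in old: Mrpl28, Mrps7, Mrpl12 and Mrpl49. The sequences of Mrpl33 and Mrpl43, which lay just outside the threshold and were higher in old controls, are given too. Each is the 250 bases before the gene's start as listed by RefSeq, written 5′ to 3′ on the gene's own strand, with the matches to a set of motifs in capitals. Positions are on GRCm38.p6: Mrpl28 is at chr17:26123253-26123502 (plus strand), Mrps7 at chr11:115603890-115604139 (plus), Mrpl12 at chr11:120484387-120484636 (plus), Mrpl49 at chr19:6057756-6058005 (minus), Mrpl33 at chr5:31613701-31613950 (plus) and Mrpl43 at chr19:45006443-45006692 (minus).
Mrpl28: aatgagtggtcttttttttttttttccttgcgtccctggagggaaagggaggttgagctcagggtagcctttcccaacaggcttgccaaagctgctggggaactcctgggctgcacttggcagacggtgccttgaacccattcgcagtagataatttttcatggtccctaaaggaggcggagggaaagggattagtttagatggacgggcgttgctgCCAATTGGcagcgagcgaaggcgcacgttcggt
Mrps7: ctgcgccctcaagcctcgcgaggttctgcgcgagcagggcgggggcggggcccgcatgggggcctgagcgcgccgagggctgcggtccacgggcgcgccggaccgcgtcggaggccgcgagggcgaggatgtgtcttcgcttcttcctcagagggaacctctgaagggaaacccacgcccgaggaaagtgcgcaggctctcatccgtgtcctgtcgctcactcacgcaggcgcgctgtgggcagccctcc
Mrpl12: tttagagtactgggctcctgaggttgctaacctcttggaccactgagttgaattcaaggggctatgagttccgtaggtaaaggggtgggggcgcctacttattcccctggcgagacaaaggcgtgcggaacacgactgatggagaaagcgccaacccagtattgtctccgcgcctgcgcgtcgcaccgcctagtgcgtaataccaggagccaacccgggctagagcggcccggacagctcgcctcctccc
Mrpl49: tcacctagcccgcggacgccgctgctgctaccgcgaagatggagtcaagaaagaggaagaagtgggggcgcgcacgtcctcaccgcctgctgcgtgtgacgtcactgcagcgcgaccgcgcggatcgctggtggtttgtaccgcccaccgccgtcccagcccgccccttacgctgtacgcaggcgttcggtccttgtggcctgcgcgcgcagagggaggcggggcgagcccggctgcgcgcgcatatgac
Mrpl33: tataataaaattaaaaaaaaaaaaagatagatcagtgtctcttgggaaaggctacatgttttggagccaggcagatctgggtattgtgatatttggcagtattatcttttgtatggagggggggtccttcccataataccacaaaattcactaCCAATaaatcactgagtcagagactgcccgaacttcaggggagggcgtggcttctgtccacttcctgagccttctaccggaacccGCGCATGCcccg
Mrpl43: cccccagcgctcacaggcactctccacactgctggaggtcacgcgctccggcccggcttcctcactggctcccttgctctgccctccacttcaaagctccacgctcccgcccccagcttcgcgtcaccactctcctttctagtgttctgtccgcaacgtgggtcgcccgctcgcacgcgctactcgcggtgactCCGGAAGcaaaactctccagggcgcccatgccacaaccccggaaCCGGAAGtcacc

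The motifs searched, on both strands, were CCGGAAG for GABP and other ETS factors, GCATGCGC for NRF1, AAGATGGC for YY1, CCAAT for NFY, CACGTG for the MYC E-box and GCGTGGGNG for WT1. GABP, NRF1 and YY1 are the classical regulators of nuclear genes for mitochondrial proteins. Some can share letters, as CCGGAAG and AAGATGGC can. The Mrpl28 sequence held 2 matches to CCAAT, and those of Mrps7, Mrpl12 and Mrpl49 held no match to any of the 6. The Mrpl43 sequence held 2 ETS matches, and that of Mrpl33 held 1 NRF1 match and 1 CCAAT. These sequences do not show that motifs go with direction, which was not tested. Among other genes with an unadjusted p under 0.05 between the controls, Mrpl51 and Mrps22 were lower in old and each held an ETS match. Mrpl17 and Mrpl18 were higher and each held one as well, while Mrpl16 and Mrpl30 were higher and held no match to any motif. An upstream sequence was at hand for 67 of the 76 genes. The ETS motif was in 16 of these 67, or 23.9%, against 7.05% of 27025 upstream sequences of all genes. The NRF1 motif was in 8 of 67 (11.9%, against 2.32%) and the YY1 motif in 4 (5.97%, against 1.59%). CCAAT was in 25 (37.3%, against 34.5%), the E-box in 5 (7.46%, against 6.05%) and the WT1 motif in 2 (2.99%, against 1.61%), those of Mrpl14 and Mrps27. These are matches of letters in a fixed window, given as a description.

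Taken as a share of all counts, the mitochondrial ribosomal protein genes varied little. They held 0.461%, 0.469% and 0.544% of the counts in old controls and 0.460%, 0.516% and 0.426% in old het. They held 0.434%, 0.398% and 0.532% in young controls and 0.479%, 0.570% and 0.659% in young het. The groups overlapped, and the whole range over the 12 libraries was 1.66-fold. The group means were 0.491% ± 0.0454 in old controls, 0.467% ± 0.0457 in old het, 0.454% ± 0.0692 in young controls and 0.569% ± 0.0900 in young het (SD, n = 3 each). With the transcripts of the mitochondrial genome taken out of the total, the means were 0.507%, 0.491%, 0.507% and 0.598% in the same order. The ratio of large-subunit to small-subunit counts stayed between 1.90 and 2.35.

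The mitochondrial mRNAs moved over a far wider range. They held 0.862%, 1.08% and 0.883% of the counts in old controls and 1.94%, 0.529% and 1.30% in old het. They held 5.28%, 5.58% and 3.08% in young controls and 0.853%, 1.91% and 2.07% in young het. Every young control library lay above every other library, and the range over all libraries was 10.6-fold. The mitochondrial rRNAs, which form the core of the same ribosome, held 1.40% to 8.22% of the counts, with the highest group mean in young controls (5.87% ± 2.07, SD, n = 3), although their groups overlapped with old het. These rRNAs were read with a kit that primes on poly(A) tails.

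The ratio of the ribosomal protein share to the mitochondrial mRNA share was therefore lowest in young controls. It was 0.0822, 0.0713 and 0.173 there, against 0.561, 0.298 and 0.318 in young het. In old controls it was 0.535, 0.434 and 0.616, and in old het it was 0.237, 0.976 and 0.327. The young controls did not overlap any other group, while old het spread across the range of both old controls and young het. The ratio carries no p-value here, since it is a score over chosen genes. The young control libraries also had the lowest total counts on average, and the part of depth in this result was not tested.

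**Figure D1:**
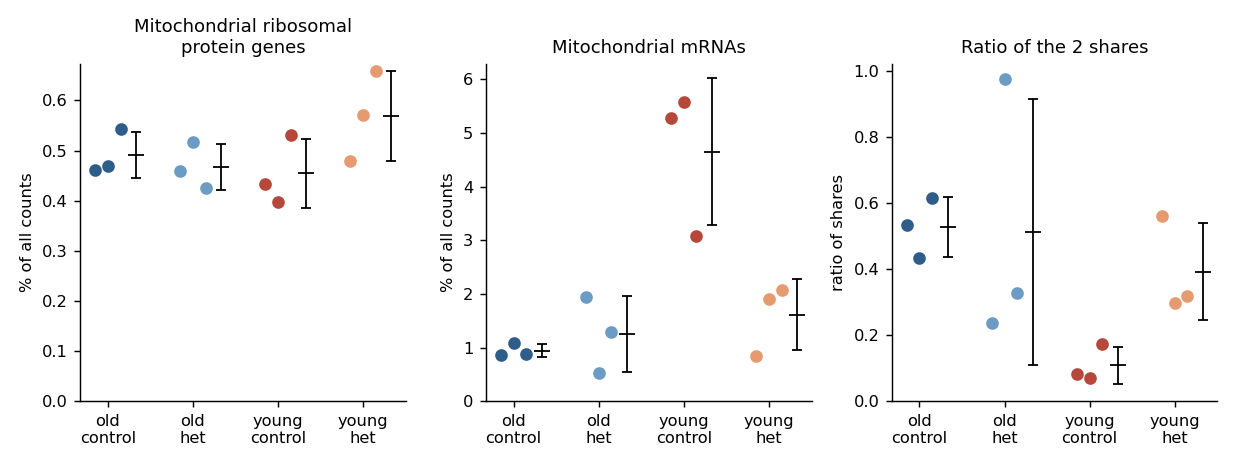
Share of all counts in the 76 mitochondrial ribosomal protein genes (left, %) and in the mitochondrial mRNAs (middle, %), and the ratio of both shares (right), by group. Points are the 3 libraries of a group in replicate order, and the bar is their mean with its SD. The left panel stays within 0.398% to 0.659%, while the middle panel runs from 0.529% to 5.58% with the young controls on top.

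Within the family the levels spanned a wide range. In a 3′ tag library a transcript gives tags from its end only, so CPM values are not scaled by length here. The mean CPM over the 12 libraries ran from 3.32 to 580 among the 71 genes that passed the filter, with a median of 44.0. Mrpl12, the protein of the flexible stalk that recruits translation factors, was highest at 580 CPM. It was followed by 2 proteins of the small subunit, Mrps16 at 298 CPM and Mrps12, a protein of the decoding centre, at 235 CPM. These 3 genes held 21.2% of all counts in the family. Mrpl22, whose protein lines the exit tunnel, and Mrps21 were lowest at 3.32 and 3.38 CPM. The median level was 45.9 CPM in the large subunit and 41.2 CPM in the small subunit.

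Genes of the family also differed in how steady they were. The median coefficient of variation over the 12 libraries was 0.408, against 0.506 for all genes that passed the filter. Mrps5, a small-subunit protein, was the steadiest, with a coefficient of variation of 0.200 and 55.8 to 98.7 CPM. Mrpl45, a large-subunit protein of the tunnel exit that faces the inner membrane, followed at 0.230 and had 19.1 to 61.5 CPM. Mrpl22 was the most variable at 1.38, followed by Mrpl24 and by Mrps21 at 0.981, all of them among the lowest in level. Mrps5, Mrpl45 and Mrpl24 were picked after their values were seen.

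The 5 genes that the filter removed were Mrpl53, Mrps34, Mrpl23, Mrps18b and Mrps36. Mrpl53 was listed at 0 in every library, Mrps34 had 1 count in all, and Mrpl23, Mrps18b and Mrps36 had 20, 46 and 95. The pseudogene row Mrpl23-ps1, by contrast, had 1107 counts, with up to 191 CPM in young control 1, and Mrps36-ps1 had 139. Reads from near-identical copies may have been split or dropped in counting, so the levels of Mrpl23 and Mrps36 are uncertain. In the GENCODE vM21 annotation the exons of 32 of the 76 genes overlap another gene, on the opposite strand for 27 of them. Since no source used here gives the strand setting of the counting, reads of such partners may not be told apart.

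In the comparison of old with young controls, 4 genes of the family differed and all 4 were lower in old controls: Mrpl28, Mrps7, Mrpl12 and Mrpl49. The test was edgeR's quasi-likelihood F test over all 10604 genes with Benjamini-Hochberg adjustment and a threshold of 0.05, here and below. The 4 genes are 5.63% of the 71, against 6.98% of all genes called in either direction and 4.19% called lower, so the family stood near the background. The remaining 67 genes did not pass.

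Mrpl28, a large-subunit protein with a bacterial homologue, had 41.1, 40.6 and 88.0 CPM in old controls and 219, 172 and 375 CPM in young controls. All 3 old libraries lay below all 3 young ones. The fitted log2 change was -2.19 (SE 0.39, edgeR adjusted p = 0.00229). The group means of het cells lay between those of the controls, with 89.8, 64.9 and 82.7 CPM in old het and 96.1, 135 and 128 CPM in young het.

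Mrps7, which sits in the head of the small subunit and is needed to assemble it, had 32.7, 29 and 49.1 CPM in old controls and 152, 112 and 197 CPM in young controls. Again the groups did not overlap. The log2 change was -2.07 (SE 0.40, edgeR adjusted p = 0.00443). Het cells had 70.4, 40.9 and 59.1 CPM when old and 44.7, 83.5 and 94.3 CPM when young. The exons of Mrps7 overlap those of Gga3 and Mif4gd on the opposite strand, and in the same comparison Gga3 had a log2 change of -1.32 (SE 0.49, edgeR adjusted p = 0.108).

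Mrpl12 had 296, 301 and 433 CPM in old controls and 1035, 733 and 702 CPM in young controls. Every young control library held more of it than any old control library, with a log2 change of -1.26 (SE 0.32, edgeR adjusted p = 0.0219). Old het libraries had 570, 313 and 550 CPM and young het libraries 653, 632 and 744 CPM. The call was lost without old control 1, old control 2 or young control 1 (edgeR adjusted p = 0.0967, 0.105 and 0.0734).

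Mrpl49, a large-subunit protein with no bacterial homologue, had 18.6, 17.0 and 18.6 CPM in old controls and 72.9, 49.3 and 36.7 CPM in young controls. The groups did not overlap, and the log2 change was -1.55 (SE 0.47, edgeR adjusted p = 0.0498). This value lay just inside the threshold. It rose to 0.0718 to 0.175 when old control 1, 2 or 3 or young control 1 or 2 was left out. It also passed 0.05 when a library outside the comparison was left out that shares the estimate of the spread, at 0.0574 without old het 1, 0.062 without old het 3, 0.0684 without young het 2 and 0.0602 without young het 3. Old het libraries had 50.1, 24.9 and 32.2 CPM and young het libraries 19.8, 30.9 and 39.2 CPM. Syvn1, whose exons overlap those of Mrpl49 on the opposite strand, had a log2 change of 1.04 (SE 0.72, edgeR adjusted p = 0.414).

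Just outside the threshold stood large-subunit genes that were higher in old controls, named after their values were seen. Mrpl33 had 214, 171 and 163 CPM in old controls and 104, 56.1 and 85.6 CPM in young controls (log2 change 1.14, SE 0.35, edgeR adjusted p = 0.0506). Mrpl43 had 85.9, 67.7 and 37.1 CPM against 34.9, 15.3 and 16.1 CPM (log2 change 1.5, SE 0.46, edgeR adjusted p = 0.0517). In both genes the groups were apart. Mrpl43 shares exon sequence with the gene of the mitochondrial DNA helicase on the opposite strand, listed as Peo1 in the table, whose log2 change was 0.52 (SE 0.62, edgeR adjusted p = 0.660). Mrpl17 followed with a log2 change of 0.96 (SE 0.32, edgeR adjusted p = 0.0757). DESeq2 called 8 genes of the family here, 5 lower and 3 higher, and the genes it added were Mrpl1 on the lower side and Mrpl17, Mrpl33 and Mrpl43 on the higher side. These 8 are 11.3% of the 71, against 12.2% of all genes called by DESeq2, so the family stood near the background there too. The split of calls in the family, 4 lower and 0 higher in edgeR, thus depended on the tool.

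At an unadjusted p under 0.05, 16 of the 71 genes passed, 8 lower and 8 higher in old controls, against 23.1% of all genes. Groups were fully apart with old higher for 13 genes (all genes 19%) and with old lower for 8 genes (all genes 12.2%). The median log2 change over the family was 0.11, against 0.22 for all genes tested. All 8 genes higher at the unadjusted threshold belonged to the large subunit, which holds 47 of the 71 genes. It also gave 6 of the 8 lower ones. Over all 10604 genes, 1329 were higher and 1124 lower at this threshold. The large subunit had a median of 0.18 and the small subunit 0.00.

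Some features of the libraries moved with this comparison. All 3 old controls had Ddx3y counts, and young control 3 had none; without that library the 4 genes were called as before (edgeR adjusted p from 0.00668 for Mrpl28 to 0.0252 for Mrpl49), against 6.88% of all genes. B cell markers summed to 9.20 to 22.8 CPM in old controls and 64.2 to 130 CPM in young controls, and mature neutrophil markers to 2185 to 5938 and 5418 to 11680 CPM. Their part in the result was not tested, and in bulk RNA fewer cells of a type and less RNA per cell cannot be told apart.

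**Figure D2:**
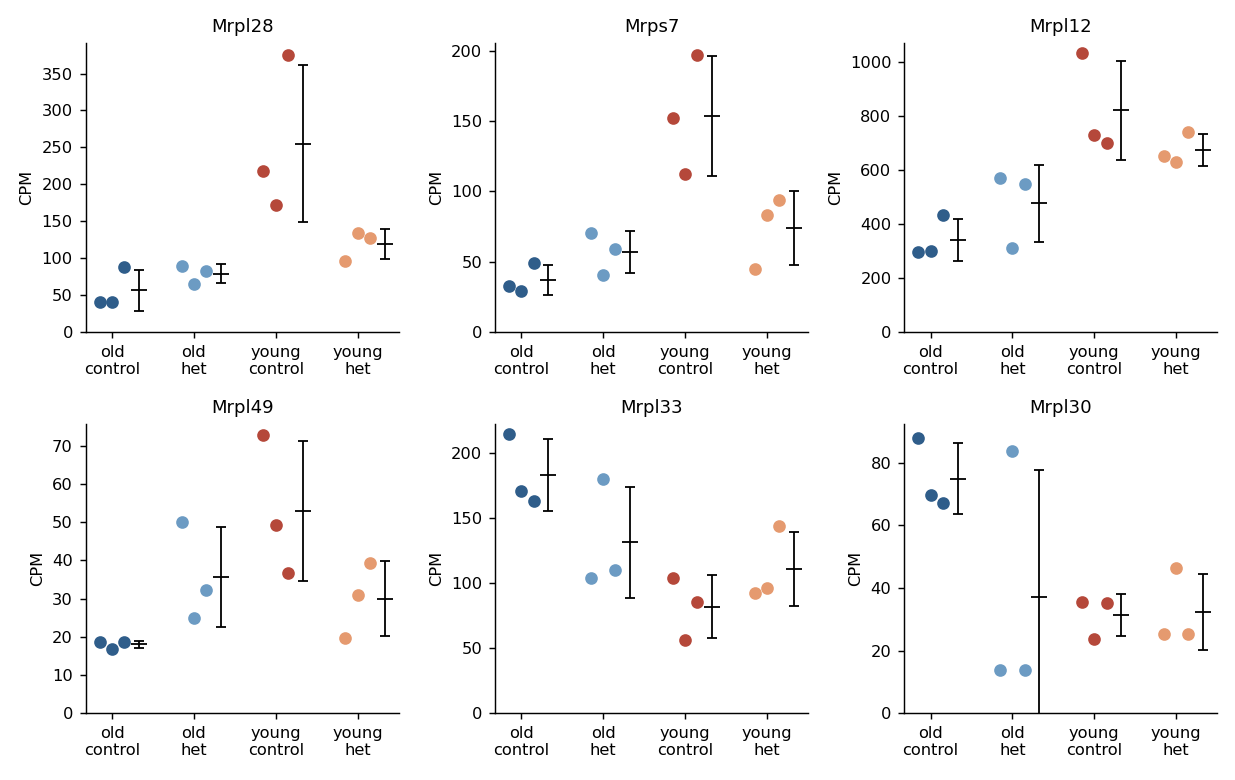
Level in CPM of the 4 genes called between old and young controls (Mrpl28, Mrps7, Mrpl12, Mrpl49) and of Mrpl33 and Mrpl30, by group. Points are the 3 libraries of a group in replicate order, and the bar is their mean with its SD. Mrpl28 runs from 40.6 to 88.0 CPM in old controls and from 172 to 375 CPM in young controls, and Mrpl30 has 1 old het library near 84 CPM and 2 near 14 CPM.

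The mitochondrial mRNAs fell in the same comparison. Of the 13 genes, 8 passed the filter, and 7 of these were called lower in old controls; mt-Nd3, at -2.79 (SE 1.03, edgeR adjusted p = 0.104), was the exception. mt-Nd4, a subunit of complex I, had 1921, 2464 and 2155 CPM in old controls and 24690, 18280 and 10660 CPM in young controls (log2 change -3.04, SE 0.48, edgeR adjusted p = 0.0012). mt-Cytb, the mitochondrially encoded subunit of complex III, had 2158, 2492 and 1920 CPM against 14520, 16520 and 8304 CPM (log2 change -2.58, SE 0.50, edgeR adjusted p = 0.00472). Both rRNAs were called lower too, mt-Rnr1 by a log2 change of -1.49 and mt-Rnr2 by -1.94 (edgeR adjusted p = 0.031 and 0.0183). The median change was -2.59 over the 8 mRNAs, while the median of the ribosomal protein genes was 0.11. The mRNAs mt-Atp6, mt-Atp8, mt-Co2 and mt-Nd4l were listed at 0 in every library and mt-Co3 had 6 counts in old het 2 alone, so the shares of mitochondrial mRNA rest on the other 8 genes. Reads from overlapping genes or nuclear copies could have been dropped by counting rules that no source used here gives.

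The comparison that the design is built on, young het against young control, called none of the 71 genes, while 0.424% of all genes (45) passed. DESeq2 also called none of them, while it called 355 genes in all (3.35%). At an unadjusted p under 0.05 there were 9 of 71 (12.7%), against 14% of all genes. Libraries of both groups were fully apart with young het higher for 8 genes (all genes 9.72%) and with young het lower for 4 (all genes 7.12%). These shares were near the background.

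The 71 genes as a whole lay somewhat above zero in that comparison. The fitted log2 change was above 0 for 46 of 71 genes (64.8%, against 54.2% of all genes), with a median of 0.31 against 0.08 over all genes. Large-subunit genes had a median of 0.40, with 34 of 47 above 0, and small-subunit genes 0.04, with 12 of 24 above 0. Genes with bacterial homologues had a median of 0.37 (30 of 43 above 0) and mitochondria-specific ones 0.06 (15 of 27). The 7 proteins of the same ribosome under other symbols, described further below, lay the other way, with a median of -0.21 and 2 of 7 above 0. The spread of a library's family median among libraries of a group was 0.17 (SD, log2), and no test of these medians was made.

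The genes of the family with the smallest p in young cells went both ways. Mrpl28 had 96.1, 135 and 128 CPM in young het, below the 172 to 375 CPM of young controls (log2 change -1.10, SE 0.37, edgeR adjusted p = 0.184). Mrps7 also lay lower in every young het library (log2 change -1.05, SE 0.38, edgeR adjusted p = 0.216). Mrpl42, a mitochondria-specific protein of the large subunit, had 109, 78.8 and 127 CPM in young het and 55.4, 57.8 and 40.5 CPM in young controls (log2 change 1.04, SE 0.36, edgeR adjusted p = 0.194). Mrps25, a mitochondria-specific protein of the small subunit, had a log2 change of 1.16 (SE 0.45, edgeR adjusted p = 0.249), and its groups overlapped. Mrpl43 had 63.8, 43.7 and 40.4 CPM in young het and 34.9, 15.3 and 16.1 CPM in young controls, with the groups apart. Mrps12 is not among those with the smallest p here and was named for its high level. It had 295, 331 and 365 CPM in young het and 194, 177 and 245 CPM in young controls, so that its groups were apart (log2 change 0.69, SE 0.29, edgeR adjusted p = 0.289). None of these genes passed the test.

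The mitochondrial mRNAs were lower in young het than in young controls, without passing the threshold in edgeR. The 8 that were tested had a median log2 change of -1.72, all 8 below 0, and mt-Nd4 had 2488, 6524 and 6684 CPM in young het (log2 change -1.77, SE 0.46, edgeR adjusted p = 0.0861). mt-Nd6 had the smallest p (log2 change -2.10, SE 0.53, edgeR adjusted p = 0.0764). DESeq2 called 6 of them lower: mt-Co1, mt-Cytb, mt-Nd1, mt-Nd2, mt-Nd4 and mt-Nd6. Without young control 3, edgeR called mt-Co1, mt-Nd1, mt-Nd4 and mt-Nd6, and without old het 2, a library outside the comparison, it called these and mt-Cytb. Leaving out any other single library called none of the 8. Young control 3 had the lowest mitochondrial mRNA share of the young controls (3.08%, against 5.28% and 5.58%), so leaving it out widens the gap. All 3 young het libraries lacked Ddx3y counts, as did young control 3 and neither of the other young controls, so sex moved with genotype in this comparison. In the fit without young control 3, every young control and no young het library had Ddx3y counts, so sex and genotype cannot be told apart there.

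Summed marker levels differed between the same groups. In young het and young control, the 6 B cell markers summed to 38.1 to 46.4 and 64.2 to 130 CPM, the 6 basophil and mast cell markers to 716 to 944 and 190 to 500 CPM, and the 10 myeloid progenitor markers to 10870 to 13850 and 4923 to 10830 CPM. None of these 3 sums overlapped between the groups. The part of sex and of these cell types in the values of young het against young control was not tested.

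In old cells, het against control, none of the 71 genes was called, and 0% of all genes were (edgeR and DESeq2 both 0). At an unadjusted p under 0.05 there were 2 genes of the family, Mrpl27 and Mrpl49, against 3.58% of all genes (380). Libraries were apart with old het higher for 4 genes (all genes 5.15%) and with old het lower for 4 (all genes 5.99%). The median log2 change was -0.03, against -0.05 for all genes, and 33 of 71 genes lay above 0. Mrpl27, a protein close to the peptide-joining centre, had 4.85, 0.401 and 3.28 CPM in old het and 9.25, 12 and 16.4 CPM in old controls (log2 change -2.20, SE 0.99, edgeR adjusted p = 0.999). Mrpl49 had a log2 change of 0.98 with the groups apart (SE 0.46, edgeR adjusted p = 0.999). The 8 mitochondrial mRNAs had a median of 0.54 here, 7 above 0 and none called.

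The difference between the het effects, old minus young, was tested directly. It was called for 0.0849% of all genes and for none of the 71 in edgeR. At an unadjusted p under 0.05 there were 6 of 71 (8.45%), against 12.8% of all genes. The smallest p belonged to Mrps7 (1.68, SE 0.55, edgeR adjusted p = 0.198) and Mrpl28 (1.59, SE 0.53, edgeR adjusted p = 0.206), whose log2 changes with the het genotype were below 0 in young and above 0 in old cells. DESeq2 called both, with adjusted p = 0.0437 for Mrps7 and 0.0491 for Mrpl28. These 2 genes are 2.82% of the family, at the share that DESeq2 called over all genes (2.79%). The median over the family was -0.38, against -0.18 over all genes.

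Old het against young het called none of the 71 genes, and 1 gene in all (0.00943%). At an unadjusted p under 0.05 there were 8 of 71 (11.3%), against 6.28% of all genes. Libraries were apart with old het lower for 10 genes (14.1%, all genes 6.95%) and with old het higher for 2 (2.82%, all genes 7.08%). Mrpl41, a mitochondria-specific large-subunit protein, had 62.3, 72.6 and 75.5 CPM in old het and 125, 192 and 193 CPM in young het (log2 change -1.28, SE 0.37, edgeR adjusted p = 0.584). Mrps12 and Mrps16 were among the 10, with log2 changes of -0.73 and -0.66 (edgeR adjusted p = 0.723 and 0.726). The median over the family was -0.20, against 0.01 for all genes. Mature neutrophil markers summed to 2126 to 5615 CPM in old het and 5871 to 12550 CPM in young het, B cell markers to 18 to 34.8 and 38.1 to 46.4 CPM, and basophil and mast cell markers to 524 to 699 and 716 to 944 CPM. Erythroid progenitor markers summed to 562 to 1046 CPM in old het and 1120 to 2042 CPM in young het. These sums were lower in every old het library than in any young het library, Ddx3y had counts in old het 2 and 3 and in no young het library, and the part of these features in the result was not tested.

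**Figure D3:**
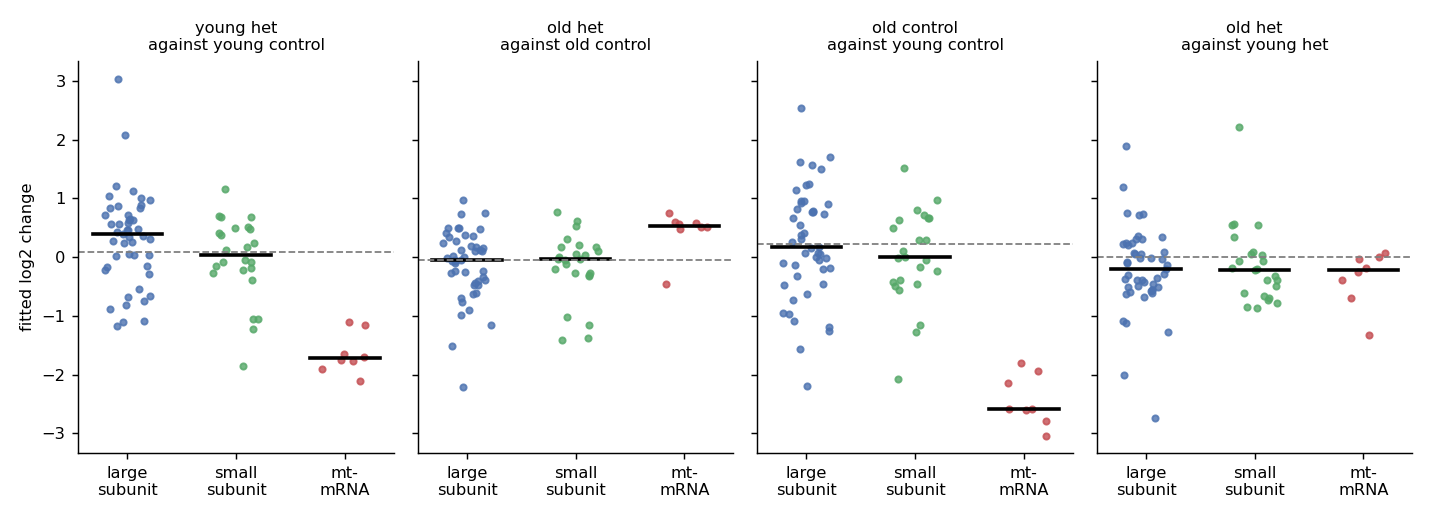
Fitted log2 change of each tested gene of the large subunit, the small subunit and the mitochondrial mRNAs in 4 comparisons. Each point is a gene, the black bar is the median of its column, and the dashed line is the median of all 10604 genes. In old against young controls the ribosomal protein genes spread around 0 while the 8 mRNAs have a median of -2.59.

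Old het libraries did not form a tight group for these genes. Mrpl30, a large-subunit protein with a bacterial homologue, had 13.8, 83.8 and 13.8 CPM in old het libraries 1, 2 and 3, while old controls had 87.8, 69.6 and 67.2 CPM and young controls 35.7, 23.8 and 35.2 CPM. Old het 2 thus lay with the old controls, and the other pair lay below every library of the other groups. Mrps6, a small-subunit protein, had 10.5, 46.1 and 7.22 CPM in old het and 64.9, 38.2 and 42.5 CPM in old controls, with the same library standing apart. Both genes were singled out after their values were seen.

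The 16 genes with an unadjusted p under 0.05 between the control groups were used to place each het library on a scale from the mean of the old controls, set at 0, to the mean of the young controls, set at 1, on log2 CPM. The genes were selected by the contrast of the controls, and the scale was set up after the values were seen, so the positions are a description. Old het 2 had a median position of 0.00 and none of the 16 genes nearer to the young mean. Old het 1 had a median of 0.66 with 11 of 16 nearer to the young mean, and old het 3 had 0.32 with 4 of 16. Of these 3 libraries, old het 2 had the lowest position for 16 of 16 genes. For some genes that position lay beyond the old mean, as for Mrps22 (-0.908, against -0.011 in old het 3). The young het libraries had medians of 0.38, 0.51 and 0.50. The 721 other genes called between the controls, outside both this family and the mitochondrial genome, gave medians of 0.49, 0.00 and 0.40 for the old het libraries and 0.45, 0.38 and 0.49 for the young het libraries. Old het 2 had the lowest position of the old het libraries for 80.9% of them, so the pattern was shared with other genes. Those genes were selected at an adjusted p, and the 4 genes of the family selected in the same way gave medians of 0.53, 0.11 and 0.45 for the old het libraries and 0.27, 0.60 and 0.71 for the young het libraries. Old het 2 was again the lowest of the old het libraries.

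Old het 2 also had the lowest mitochondrial mRNA share of all 12 libraries (0.529%) and the lowest mitochondrial rRNA share (1.40%, against 4.78% and 4.75% in old het 1 and 3). It had 2303346 counts, against 1264603 and 1542185. Old het 1 had 0 Ddx3y counts, and old het 2 and 3 had 336 and 236. When old het 2 was left out, Mrpl30 was called in the test of the difference between the het effects, as the only gene of the family (1.41%, against 2.66% of all genes called in that fit). Mrpl30 had been singled out because old het 2 stood apart in it, so this call is no independent evidence.

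**Figure D4:**
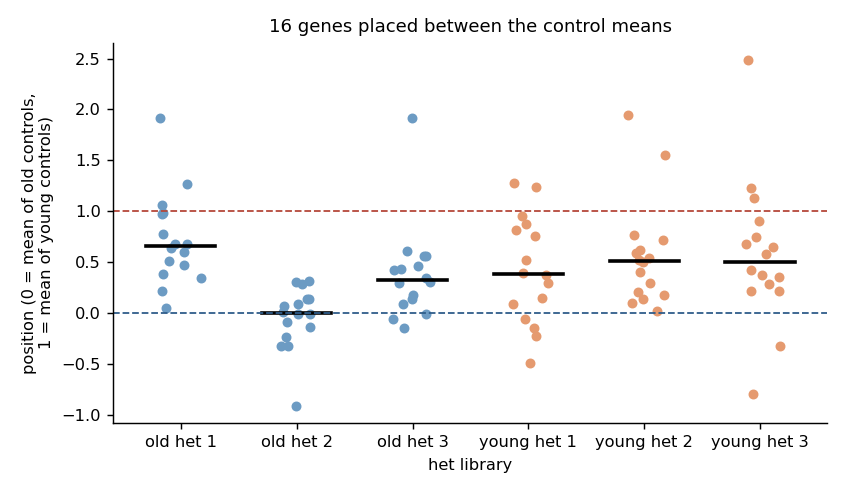
Position of each het library between the mean of the old controls (0, blue dashed line) and the mean of the young controls (1, red dashed line), on log2 CPM, for the 16 genes with an unadjusted p under 0.05 between the controls. Each point is a gene and the black bar is the median of a library. The median of old het 2 lies at 0.00, and those of the other het libraries lie between 0.32 and 0.66.

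**Figure D5:**
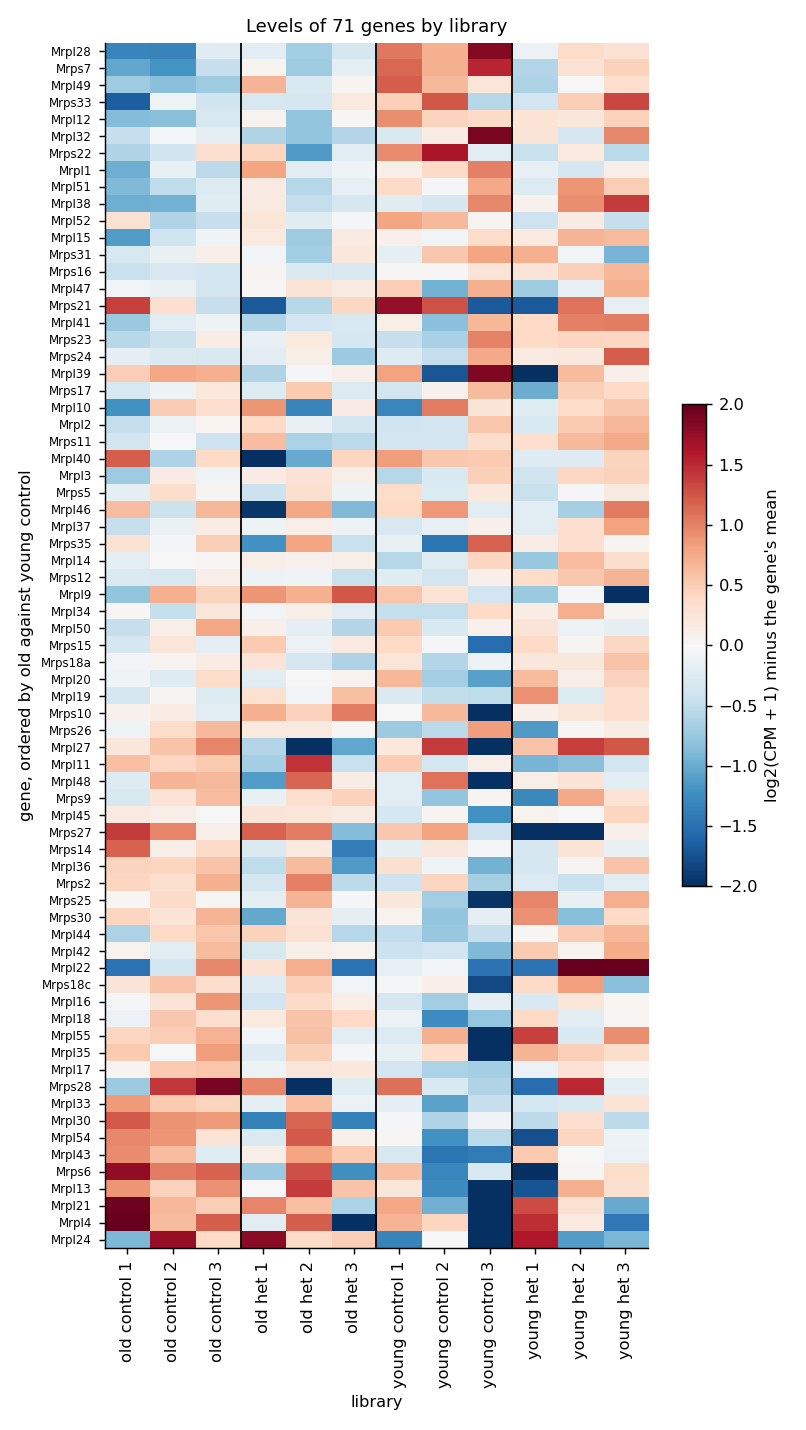
Level of the 71 tested genes in each of the 12 libraries, as log2(CPM + 1) minus the gene's mean over all libraries (red higher, blue lower, colours end at 2). Genes are ordered by their log2 change in old against young controls, from Mrpl28, Mrps7 and Mrpl49 at the top, low in old controls and high in young controls, to genes with the opposite pattern at the bottom.

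Other genes of mitochondrial translation were read from lists. Of 7 ribosomal proteins whose symbols do not start with Mrp, all were tested, and Chchd1, a small-subunit protein, was called lower in old controls: it had 138, 119 and 161 CPM, against 287, 366 and 463 CPM in young controls (log2 change -1.42, SE 0.31, edgeR adjusted p = 0.00952). Its het levels were 220, 124 and 158 CPM in old and 279, 257 and 292 CPM in young cells. In old against young controls, 4.19% of all genes were called lower. Dap3, a GTP-binding protein of the small subunit, had a log2 change of -0.76 in the same comparison (SE 0.33, edgeR adjusted p = 0.166). No gene of this list was called between het and control at either age.

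Among 23 tested assembly factors and rRNA modifiers, none was called in young het against young control or in any other comparison. Their median in young het was 0.31, with 15 of 23 above 0, and 4 of them had an unadjusted p under 0.05, all above 0. Over all genes the median was 0.08, 54.2% lay above 0 and 14% had an unadjusted p under 0.05, in either direction. Mtg1, a GTPase that takes part in late assembly of the large subunit, had 24.9, 22.4 and 16.4 CPM in young het and 6.83, 5.10 and 0.764 CPM in young controls (log2 change 2.34, SE 0.91, edgeR adjusted p = 0.240). Mpv17l2 had 56.1, 64.3 and 67.7 CPM against 47.1, 18.7 and 20.6 CPM (log2 change 1.10, SE 0.41, edgeR adjusted p = 0.226). Wbscr16 had a log2 change of 1.26 (SE 0.47, edgeR adjusted p = 0.228).

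The translation factors (11 tested), mitochondrial aminoacyl-tRNA synthetases (17) and genes of mitochondrial DNA transcription and RNA processing (20) had no gene called in any of the 5 comparisons. In young het against young control their medians were 0.18, -0.07 and -0.19. Mtfmt, which formylates the initiator methionyl-tRNA, had a log2 change of 1.70 there (SE 0.76, edgeR adjusted p = 0.319), and Tfam, which packages mitochondrial DNA and starts its transcription, had -0.66 (SE 0.44, edgeR adjusted p = 0.529). Taco1, a translational activator of mt-Co1, had a log2 change of 1.74 in old het against old control (SE 0.74, edgeR adjusted p = 0.999).

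Of 8 tested regulators of nuclear genes for mitochondrial proteins, 1 was called: Pprc1, a coactivator of the PGC-1 family, was lower in old controls. Over all genes, 4.19% were called lower in that comparison. Pprc1 had 29.9, 44.6 and 73.4 CPM in old controls and 427, 243 and 181 CPM in young controls (log2 change -2.54, SE 0.44, edgeR adjusted p = 0.0022). The het libraries had 132, 54.1 and 144 CPM in old and 166, 121 and 206 CPM in young cells, and again old het 2 was the lowest of the old het libraries. Nrf1 had a log2 change of 0.77 in old het against old control (SE 0.34, edgeR adjusted p = 0.999), and Gabpa had 0.95 in young het against young control (SE 0.73, edgeR adjusted p = 0.601). Neither passed the test. In young het against young control the 8 regulators had a median of -0.32, with 3 above 0 and 5 below 0. The median over all genes was 0.08. In old het against old control their median was 0.09, with 5 above 0 and 3 below 0, against -0.05 over all genes.

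Transcript properties had weak relations to the changes, given as descriptions without a p since the genes share the same libraries. Across the 71 genes, Spearman's rho of the log2 change with transcript GC content was 0.09 in young het against young control and -0.01 in old against young controls. With transcript length it was -0.21 and -0.14, against -0.08 and -0.05 over all genes that had a length. In the difference between the het effects rho with length was 0.31, against 0.13 over all such genes.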

How the data were processed

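Total RNA of sorted myeloid progenitors was made into libraries with a Lexogen 3′ mRNA-seq kit, per the labels' protocols. The authors deposited raw read counts per gene for 12 libraries, and the values were whole numbers that had not been normalized. The submitters' processing notes name STAR 2.4, HTSeq 0.6.1, DESeq2 and the build mm9, with no role or order. No source used here names the gene annotation, says whether counting used strand, or says whether molecular identifiers were read.

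Counts were tested as deposited with edgeR 4.0.16 in R 4.3.3 (TMM scaling, filterByExpr at a minimum count of 10, total at least 15, 4 group means in 1 fit of all 12 libraries, quasi-likelihood F tests, Benjamini-Hochberg adjustment over 10604 genes, threshold 0.05). CPM are counts divided by the TMM-scaled library total, times 1e6. The SE is the size of the log2 change divided by the square root of F. Alternatives were DESeq2 1.42.0, its size factors in edgeR, no filter, a minimum count of 30, the mitochondrial transcripts left out, only the compared groups, and leaving out libraries. The script was also run on simulated counts, and the outcome is not given here. The biological coefficient of variation of the fit, its estimate of the spread between libraries of a group, was 0.535. With 3 libraries in each group, a gene that was not called is not shown to be unchanged. Each count of genes with groups apart means that no library of one group reached the range of the other. No pair of libraries in a group agreed within sampling noise. Low counts limit precision most in the young controls.

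The genes and lists were chosen with earlier results of these data known. Genes were named by rule: those past the threshold, the 3 large-subunit and 2 small-subunit genes with the smallest p in each comparison, the extremes of level, and up to 3 genes by p from each list; others are marked as picked after their values were seen. Upstream sequences are from RefSeq (GRCm38.p6), matched by symbol, and overlaps from GENCODE vM21 by gene name. The table holds no coordinates. Intervals were not computed for shares, and the SD covers the spread between libraries.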

Additional observations from a re-analysis of the deposited data

How the results depend on the processing

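No paired analysis was possible because the libraries carry no replicate numbers that are shared between groups. None of the log2 changes recomputed for single named genes changed sign under any alternative. For the medians a change of sign was not recorded. Of the 1006 recomputed values, 906 stayed on the same side of the threshold or within the limit set for a move. Counts of all genes moved most; each range below is over leaving out any of the 12 libraries in turn. For young het against young control (45 genes) DESeq2 called 355, no filter 258, the fit without mitochondrial transcripts 27, only the compared groups 13 and the fit without old control 1 and young control 3 called 241; leaving out a library gave 1 to 157. For old het against old control (0 genes, 380 at an unadjusted p under 0.05) no filter gave 11 and leaving out a library 0 to 1. For the difference between the het effects (9 genes) DESeq2 called 296, no filter 216 and the fit without old control 1 and young control 3 called 59, with 2 to 294 when a library was left out. For old against young controls (740 genes) DESeq2 called 1295 and the fit without old control 1 and young control 3 called 463, with 315 to 886 when a library was left out. For old het against young het (1 gene) DESeq2 called 15, no filter 22, only the compared groups 2 and the fit without old control 1 and young control 3 called 8, with 0 to 7 when a library was left out. The cause of these moves was not tested.

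Within the family, Mrpl28 and Mrps7 were called lower in old controls under every alternative run (adjusted p 9.12e-07 to 0.0354 and 7.8e-06 to 0.0411). DESeq2 called 8 genes of the family in old against young controls, the fit without old control 1 and young control 3 called 2, and leaving out a library gave 2 to 6 (6 without old het 2, which added Mrpl33 and Mrpl43). Mrpl12 lost its call without old control 1 and young control 3 (adjusted p = 0.059), and Mrpl49 lost it there (0.0655), with no filter (0.0674) and with only the compared groups (0.0585). With a minimum count of 30 there were 6 calls, with Mrpl33 and Mrpl43 added on the higher side. In the difference between the het effects DESeq2 called 2 genes of the family, leaving out a library called 0 to 1, and the family median was -0.58 without old control 1 and young control 3. With DESeq2's size factors in edgeR, or without the mitochondrial transcripts, the 4 calls were the same genes.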
